A study of Homo sapiens with 4 samples.

Results

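The genes described here are the 37 genes of human mitochondrial DNA, taken as the rows of the deposited gene table whose name starts with MT-, out of 58174 genes in all. They comprise 13 protein-coding genes, 2 ribosomal RNA genes and 22 transfer RNA genes, and the 3 classes are reported apart. RNA was sequenced from H1299 and HCC827, 2 established human lung cancer cell lines, treated for 48 h with siCDH3, an siRNA that targets CDH3, or with the control siCTR. H1299 comes from a lymph node metastasis of a non-small cell lung cancer, and HCC827 from a lung adenocarcinoma whose EGFR carries an activating deletion. The 4 groups were H1299 siCTR, H1299 siCDH3, HCC827 siCTR and HCC827 siCDH3, with 1 library each, so a difference between siRNAs in a line rests on single libraries, with no replicate check. All 4 cultures received an siRNA, and cells without one are not analysed here. The study asked which genes differ in expression after short-term silencing of CDH3, which encodes P-cadherin.

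Mitochondrial DNA is a small circular genome that encodes core subunits of the respiratory chain and of ATP synthase, together with the ribosomal and transfer RNAs that translate them inside the organelle. Both strands are transcribed into long precursor RNAs, and the transfer RNAs that punctuate them are cut out to release the messenger and ribosomal RNAs, most of which then gain short poly(A) tails. Among the protein-coding genes MT-ND6 alone lies on the opposite strand, with 8 of the 22 transfer RNA genes. These RNAs from the opposite strand are called light-strand transcripts here, and the others heavy-strand transcripts. All other proteins of mitochondria, including most subunits of the same complexes, are encoded in the nucleus.

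Values are TPM, which divide reads by transcript length and scale each library to a fixed sum. The columns summed to between 999859 and 999943, and read depth is unknown. Because the sum is fixed, a larger mitochondrial share lowers the TPM of every other gene. The targeted gene CDH3 had a TPM of 1.21 (siCTR) and 0.169 (siCDH3) in H1299, where it was low with either siRNA, and of 173 and 78.8 in HCC827. EPCAM and CDH1, epithelial surface genes, were at 437 and 322 TPM in HCC827 siCTR and at 0.514 and 0.0495 in H1299 siCTR, and 3 of 5 epithelial markers (KRT7, KRT8 and KRT18) were at 5 TPM or more in both H1299 libraries, against 5 of 5 in HCC827. Of 4 mesenchymal markers 4 reached 5 TPM in H1299 and 2 (VIM and FN1) in HCC827, with the filament gene VIM at 5149 in H1299 siCTR and 9.64 in HCC827 siCTR. Of the markers of other cell types, 0 of 4 hematopoietic and 0 of 3 endothelial ones were at 5 TPM or more in any library, and of 4 fibroblast markers 1 was, COL1A1, at 5.58 (siCTR) and 5.87 (siCDH3) in HCC827. In such bulk libraries, fewer cells of a type and less RNA per cell cannot be told apart.

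Mitochondrially encoded RNA took a much larger share of the HCC827 libraries than of the H1299 libraries. The 37 genes together held 13.5% of TPM with siCTR and 16.4% with siCDH3 in H1299, and 36.2% and 34.4% in HCC827. The 2 ribosomal RNAs held 1.32%, 1.42%, 4.27% and 4.09% in the same order, and the 22 transfer RNA genes 2.10%, 2.14%, 4.29% and 3.92%. Both HCC827 libraries lay above both H1299 libraries in each class. In the HCC827 libraries MT-CO1, MT-CO3 and the ribosomal RNA gene MT-RNR2 were the 3 genes of highest TPM in the whole table. Of the 13 mRNAs, 10 were among the 20 most abundant genes in H1299 siCTR, 11 in H1299 siCDH3 and 12 in each HCC827 library. All 37 genes passed the filter of 5 TPM in every comparison, and the lowest value of any of them was 10.04 TPM, for MT-TW in HCC827 siCTR.

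The 13 mRNAs spanned a wide range within each library although they are cut from shared precursors. The ratio of the highest to the lowest TPM was 9.29 (siCTR) and 5.26 (siCDH3) in H1299, and 8.43 and 8.06 in HCC827. MT-CO1, which encodes the catalytic subunit of cytochrome c oxidase (complex IV), was the highest of the 13 in every library. Its TPM was 16613 (siCTR) and 18101 (siCDH3) in H1299, against 50566 and 47761 in HCC827. MT-ATP6, a proton channel subunit of ATP synthase, was the lowest in H1299 siCTR, MT-CYB (cytochrome b, complex III) was the lowest in H1299 siCDH3, and MT-ND6, a complex I subunit, was the lowest in both HCC827 libraries.

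**Figure D1:**
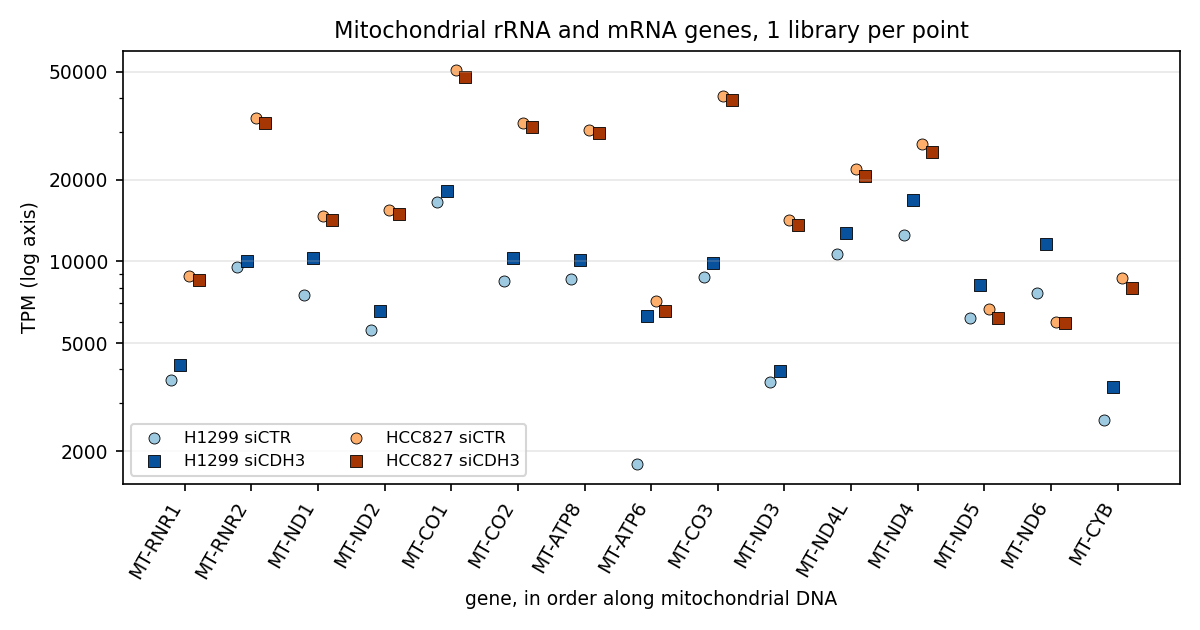
TPM (log axis) of the 2 ribosomal RNA and 13 protein-coding genes of mitochondrial DNA, in gene order, with 1 point per library and no error bars because each group has 1 library. The HCC827 points lie above the H1299 points for most genes but not for MT-ND5 and MT-ND6. MT-ATP6 has its lowest value in H1299 siCTR (1788 TPM), and its H1299 siCDH3 point lies close to the HCC827 points.

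The lines also divided their mitochondrial mRNA differently among the complexes. The 7 complex I genes held 53.4% of mitochondrial mRNA TPM in H1299 siCTR and 54.7% in H1299 siCDH3, against 38.4% in HCC827 siCTR and 38.3% in HCC827 siCDH3. The 3 complex IV genes held 33.6% and 29.8% in the H1299 siCTR and siCDH3 libraries, and 44.8% and 44.9% in those of HCC827. Within a library complex I was thus the largest part in H1299, and complex IV in HCC827. The complex I genes did not move together. With siCTR, MT-ND6 held 7.62% in H1299 and 2.17% in HCC827, and MT-ND5 6.15% and 2.43%. MT-ND1, MT-ND4L and MT-ND4 also held less in HCC827, whereas MT-ND2 (5.55% and 5.61%) and MT-ND3 (3.58% and 5.15%) did not. The 2 ATP synthase genes held 10.4%, 12.8%, 13.7% and 13.8%, and MT-CYB 2.60%, 2.68%, 3.15% and 3.03%, in the order H1299 siCTR, H1299 siCDH3, HCC827 siCTR and HCC827 siCDH3.

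In H1299, all 13 mitochondrial mRNAs had a higher TPM in the siCDH3 library than in the siCTR library. For most of them the difference was small: 1 of 13 was at least 2-fold higher on the TPM + 1 scale, where 0.878% of all 11622 genes tested were, and 2 of 13 were at least 1.5-fold higher, where 3.21% of all genes were. Their log2 ratios ran from 0.12 to 1.82 with a median of 0.28. Of all genes tested 35.2% were higher in siCDH3, and their median log2 ratio was -0.11, so the median of the 13 lay 0.39 above that of all genes. All 13 also lay above the median of all genes.

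The complex I genes, which encode membrane subunits of NADH dehydrogenase, had a median log2 ratio of 0.41 in H1299. MT-ND6 had the largest of them, with 7657 and 11613 TPM in siCTR and siCDH3, a log2 ratio of 0.60. Among all genes tested 352 had a higher ratio. Without known strandedness, reads of MT-ND6 and of the heavy-strand precursor across it cannot be told apart. MT-ND1 had 7542 and 10249 TPM (0.44). MT-ND4 had 12497 and 16897 TPM (0.44). MT-ND5, next to MT-ND6 on the genome, went from 6181 to 8202 TPM (0.41), and these 4 complex I genes lay above the remaining 3. The remaining complex I genes were MT-ND4L, with 10681 and 12737 TPM (0.25), MT-ND2, with 5582 and 6555 (0.23), and MT-ND3, with 3601 and 3961 (0.14).

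The complex IV genes of H1299 differed less between the 2 libraries. MT-CO1 had a log2 ratio of 0.12. MT-CO2, which carries the copper site that takes electrons from cytochrome c, had 8441 and 10253 TPM in siCTR and siCDH3 (0.28). MT-CO3 had 8731 and 9829 TPM (0.17), so the log2 ratios of the 3 genes lay between 0.12 and 0.28. MT-CYB, the cytochrome b of complex III, had 2612 and 3442 TPM (0.40), within the range of the complex I genes.

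MT-ATP6 stood apart from the other 12 mRNAs of H1299. Its TPM was 1788 (siCTR) and 6307 (siCDH3) in H1299, against 7135 and 6590.2 in HCC827. On the TPM scale the H1299 siCTR value is the low one, and the 3 other libraries lie close together. Relative to the neighbouring genes MT-ATP8 and MT-CO3, H1299 siCDH3 is instead the library set apart, as the ratios below show. With nuclear copies added, described below, both HCC827 libraries lie well above H1299 siCDH3. The log2 ratio in H1299 was 1.82, and 19 of the 11622 genes tested had a higher one. In that line the next largest log2 ratio among the mRNAs was that of MT-ND6.

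MT-ATP6 shares its transcript with MT-ATP8, a small subunit of the same enzyme, and their reading frames overlap. In the GENCODE release 29 transcripts, on GRCh38, the last 46 bases of MT-ATP8 are the first 46 of MT-ATP6, 22.2% of MT-ATP8 and 6.75% of MT-ATP6. This stretch is shown because reads in it can be given to either gene. Capitals mark the start codon of MT-ATP6 at its beginning and the stop codon of MT-ATP8 at its end.
MT-ATP8 and MT-ATP6 overlap: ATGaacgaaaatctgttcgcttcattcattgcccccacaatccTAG
MT-ATP8 differed less than MT-ATP6 between the H1299 libraries, with a log2 ratio of 0.23. Its TPM was 8623 (siCTR) and 10102 (siCDH3) in H1299, against 30574 and 29821 in HCC827. The ratio of MT-ATP6 to MT-ATP8 TPM was 0.207 (siCTR) and 0.624 (siCDH3) in H1299, and 0.233 and 0.221 in HCC827, highest in H1299 siCDH3. MT-CO3, the next gene downstream, gave ratios of MT-ATP6 to MT-CO3 of 0.205, 0.642, 0.175 and 0.168 in the same order. MT-ND4L and MT-ND4 overlap too, by 7 bases, and the ratio of their TPM was between 0.754 and 0.855 in the 4 libraries.

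Nuclear DNA holds copies of mitochondrial genes, and the table gives 405 named ones, of which 10 reached a TPM of 5 in at least 1 library. MTATP6P1, a copy of MT-ATP6, is identical to it at 671 of 681 aligned bases (98.5%), with a longest identical run of 141 bases. MTATP6P1 had 32.8 TPM (siCTR) and 53.0 (siCDH3) in H1299, and 6442 and 6166 in HCC827. In HCC827 the named copies thus held 47.5% (siCTR) and 48.3% (siCDH3) of the TPM of MT-ATP6 and its copies, and in H1299 1.80% and 0.837%. With the copies added, MT-ATP6 came to 1821 TPM (siCTR) and 6361 (siCDH3) in H1299, and 13577 and 12756 in HCC827, a log2 ratio of 1.80 in H1299 and -0.09 in HCC827. The ratio of MT-ATP6 to MT-ATP8 was then 0.211 (siCTR) and 0.629 (siCDH3) in H1299, and 0.444 and 0.428 in HCC827, so both HCC827 libraries lay between the H1299 libraries. Within H1299 the MT-ATP6 difference was nearly as large with the copies as without, because the copies hold too little TPM there to change it. How reads that match both a mitochondrial gene and its copy were given out is not stated in the sources used here, and its part in the MT-ATP6 values was not tested.

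**Figure D2:**
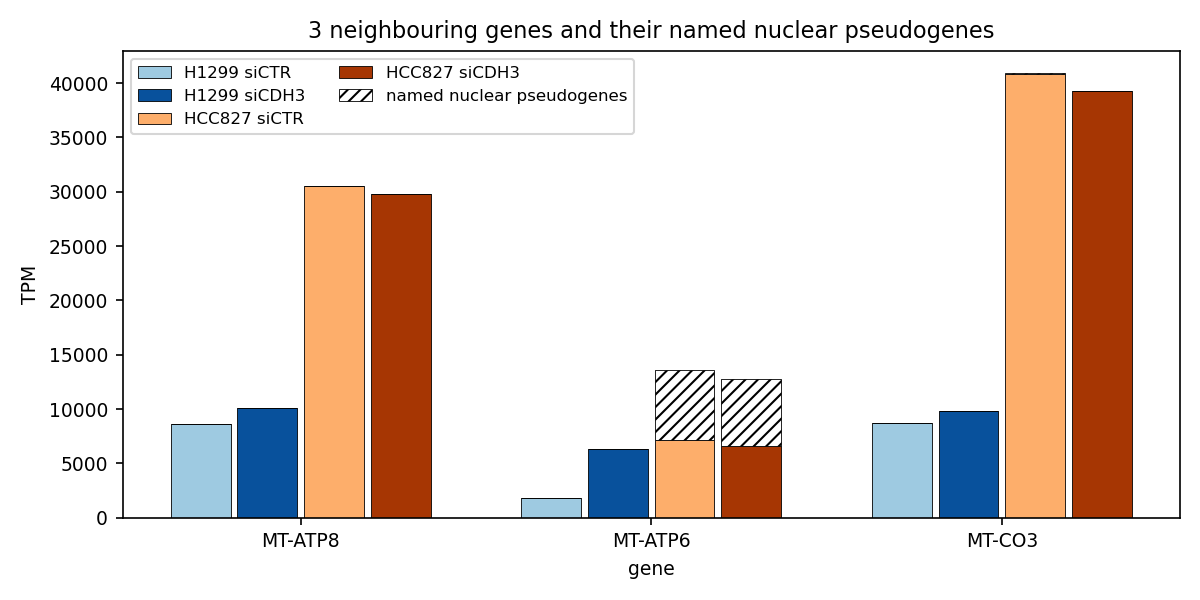
TPM of 3 neighbouring mitochondrial genes (solid bars, from 0) with the summed TPM of their named nuclear copies stacked on top (hatched), 1 bar per library and no error bars. The hatched part is large only for MT-ATP6 in HCC827, and the H1299 siCTR bar of MT-ATP6 is the lowest bar shown.

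Other copies took smaller shares. MTND2P28 had between 568 and 2656 TPM over the 4 libraries, and the named copies of MT-ND2 held between 9.24% and 14.7% of the TPM of that gene and its copies. MTCO1P12 had between 432 and 1486 TPM and MTND1P23 between 57.6 and 122, with 2.54% to 2.92% and 0.758% to 0.930% for the copies of MT-CO1 and MT-ND1. These copies are 98.4% (MTND2P28), 98.6% (MTCO1P12) and 99.1% (MTND1P23) identical to their mitochondrial counterparts over the aligned bases, so reads of these genes and of their copies may be split between the 2.

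In HCC827, all 13 mitochondrial mRNAs had a slightly lower TPM in the siCDH3 library. Their log2 ratios lay between -0.12 for MT-CYB and -0.02 for MT-ND6, with a median of -0.06, and 0 of 13 were at least 2-fold apart, where 1.84% of all 11043 genes tested were. Of all genes 42.9% were lower, with a median log2 ratio of 0.03, and all 13 mRNAs lay below that median. MT-ND5 had 6698 and 6177 TPM in siCTR and siCDH3 (-0.12), MT-CYB 8710.4 and 7998 (-0.12) and MT-ATP6 7135 and 6590.2 (-0.11). MT-ND6 had 6001 and 5926 (-0.02) and MT-ATP8 30574 and 29821 (-0.04), the smallest of the 13 in absolute log2 ratio. The 4 complexes did not separate in this line, where the median log2 ratio was -0.06 for complex I, -0.06 for complex IV, -0.08 for the ATP synthase genes and -0.12 for MT-CYB.

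**Figure D3:**
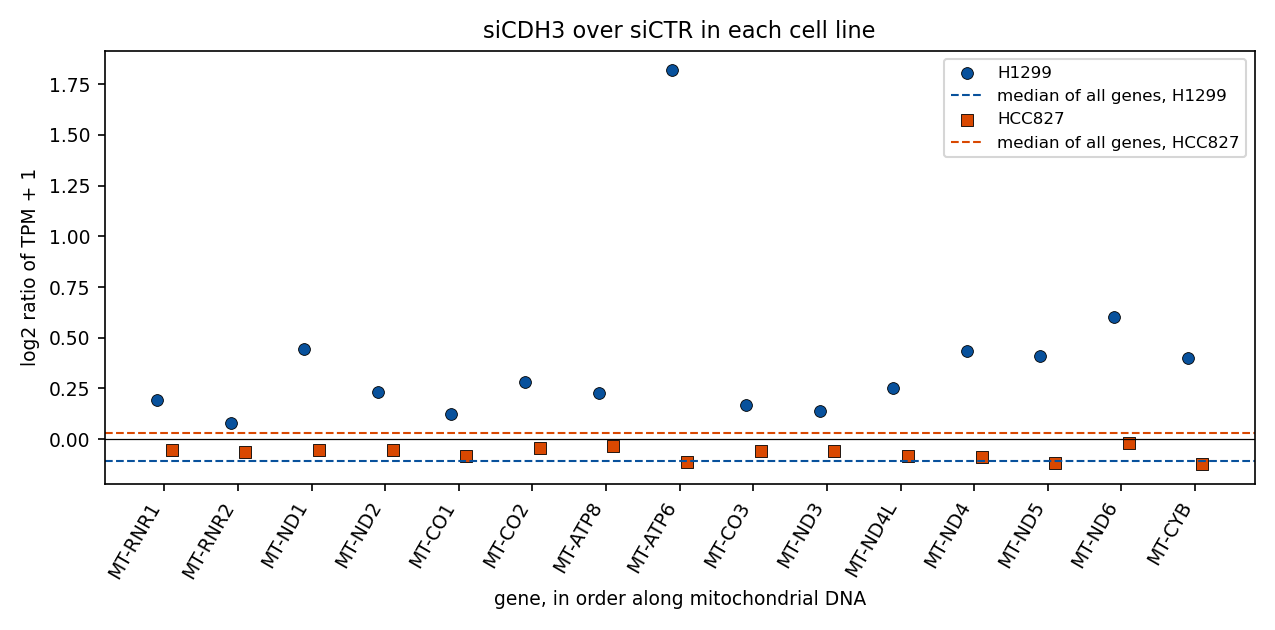
Log2 ratio of TPM + 1, siCDH3 over siCTR, for each ribosomal RNA and mRNA gene in H1299 (circles) and HCC827 (squares), with dashed lines at the median of all genes tested in each line (-0.11 and 0.03). Every H1299 point lies above 0 and every HCC827 point below it, and MT-ATP6 in H1299 is the highest, at 1.82.

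Over both lines, limma fitted to log2(TPM + 1) of 12941 genes with the cell line as a block called 0 of 13 mitochondrial mRNAs for the siRNA term (Benjamini-Hochberg adjusted p under 0.05), and 0 of 13 had an unadjusted p under 0.05. Of all genes, 0% were called higher and 0.00773% lower, and 4.49% had an unadjusted p under 0.05. The largest fitted difference was that of MT-ATP6, at 0.85 (SE 0.47, adjusted p = 0.95) by limma, higher in 1 of 2 lines. The smallest adjusted p of the 13 by limma was 0.95 in this fit. The unit of replication in it is the line, with 1 residual degree of freedom per gene, which is how far the 2 lines differ in response. The limma fit weighs that residual with a spread estimated over all genes, which counts for 3.71 prior degrees of freedom. Each SE and p-value therefore rests more on the spread over all genes than on the gene's own residual. The difference in response between the lines has no test, because 1 library per group leaves no residual degree of freedom for it.

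The ribosomal RNAs form the small (12S, MT-RNR1) and large (16S, MT-RNR2) subunits of the mitochondrial ribosome. MT-RNR1 had a TPM of 3643 (siCTR) and 4161 (siCDH3) in H1299, against 8833 and 8524 in HCC827. MT-RNR2 had 9547 (siCTR) and 10074 (siCDH3) in H1299, against 33856 and 32386 in HCC827. Both were somewhat higher in siCDH3 in H1299, with log2 ratios of 0.19 and 0.08, and slightly lower in HCC827, with -0.05 and -0.06. In both lines 0 of 2 were at least 2-fold apart (2.46% of all genes in H1299, 1.84% in HCC827), and limma called 0 of 2 for the siRNA term, with 0 of 2 at an unadjusted p under 0.05. Per length, MT-RNR2 exceeded MT-RNR1 by 2.62-fold (siCTR) and 2.42-fold (siCDH3) in H1299, and 3.83-fold and 3.80-fold in HCC827. Both genes lie ahead of the mRNAs on the heavy-strand precursor, and their summed TPM was 0.131, 0.111, 0.155 and 0.155 times that of the 13 mRNAs in the same order of libraries. Whether ribosomal RNA was depleted or poly(A) RNA selected is not given in the sources used here. Of 9 non-polyadenylated nuclear RNAs listed, such as RN7SK, 3 reached 5 TPM in either line, with RN7SK at 37.9, 35.8, 8.16 and 15.0 TPM in that order.

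The transfer RNA genes differed from one another far more than the mRNAs did. In H1299 siCTR their TPM ran from 23.5 to 5819 with a median of 79.7, and in HCC827 siCTR from 10.04 to 13823 with a median of 214. A run of 4 neighbouring light-strand genes between MT-ND2 and MT-CO1, MT-TA (alanine), MT-TN (asparagine), MT-TC (cysteine) and MT-TY (tyrosine), held 76.2% of all transfer RNA TPM with siCTR and 74.0% with siCDH3 in H1299, and 87.7% and 87.4% in HCC827. MT-TW (tryptophan), the heavy-strand gene that adjoins this run, was among the lowest in every library. The sequences of the 5 genes are shown because they are neighbours of similar length with TPM levels far apart. They are the GENCODE release 29 transcripts on GRCh38, 5′ to 3′ in each gene's own sense, and capitals mark the anticodon, located as the only match of its letters after a T between bases 26 and 38.
MT-TW: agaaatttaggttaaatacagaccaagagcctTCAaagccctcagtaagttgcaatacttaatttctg
MT-TA: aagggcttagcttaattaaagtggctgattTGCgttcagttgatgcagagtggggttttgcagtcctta
MT-TN: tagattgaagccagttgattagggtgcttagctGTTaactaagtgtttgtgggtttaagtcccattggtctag
MT-TC: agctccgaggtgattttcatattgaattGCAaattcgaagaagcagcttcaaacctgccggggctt
MT-TY: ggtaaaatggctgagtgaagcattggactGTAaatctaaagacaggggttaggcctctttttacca

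MT-TC was the highest transfer RNA gene in every library, at 5819 (siCTR) and 5807 (siCDH3) in H1299, against 13823 and 12516 in HCC827. MT-TY had 4713 (siCTR) and 4869 (siCDH3) in H1299, against 10503 and 9445 in HCC827. MT-TN had 3714 (siCTR) and 3505 (siCDH3) in H1299, against 9259.7 and 8566 in HCC827. All 3 thus reached the TPM of mitochondrial mRNAs, and MT-TA followed with 1753 (siCTR) and 1636 (siCDH3) in H1299, against 3999.6 and 3695 in HCC827. MT-TW had 25.5 (siCTR) and 25.9 (siCDH3) in H1299, against 10.04 and 16.8 in HCC827, below MT-TA in every library. The genes are between 59 and 75 bases long, and neither the length correction used for such short genes nor the strandedness of the libraries is given in the sources used here. Reads of a precursor or of a neighbouring gene can therefore be counted in them, and reads of the 2 strands cannot be told apart.

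The light-strand genes outside that run were lower. MT-TP (proline), at the end of the heavy-strand coding region, had 1575 (siCTR) and 1488 (siCDH3) in H1299, against 873 and 870.5 in HCC827. MT-TE (glutamate), next to MT-ND6, had 424 (siCTR) and 556 (siCDH3) in H1299, against 477 and 490.2 in HCC827. MT-TQ (glutamine) and MT-TS1 (serine) stayed between 19.2 and 39.7 TPM in all 4 libraries. High TPM was therefore not shared by all 8 light-strand genes, whose median was 1664 TPM in H1299 siCTR and 2436 in HCC827 siCTR, against 63.1 and 171 for the 14 heavy-strand genes. Among the latter MT-TL1 (leucine), between MT-RNR2 and MT-ND1, was the highest, at 1400.0 (siCTR) and 1671 (siCDH3) in H1299, against 1820.0 and 1654 in HCC827. MT-TF (phenylalanine), the first gene of the heavy-strand precursor, had 652 (siCTR) and 766 (siCDH3) in H1299, against 232 and 245 in HCC827, and MT-TV (valine), between the ribosomal RNA genes, 245 (siCTR) and 277 (siCDH3) in H1299, against 295 and 304 in HCC827. MT-TD (aspartate) had 136 (siCTR) and 149.8 (siCDH3) in H1299, against 116 and 104 in HCC827, and MT-TM (methionine) 87.0 (siCTR) and 87.4 (siCDH3) in H1299, against 102 and 99.8 in HCC827. MT-TG (glycine), MT-TR (arginine) and MT-TT (threonine) had 50.2, 70.6 and 72.3 TPM in H1299 siCTR and 131, 161 and 181 in HCC827 siCTR, and all 3 were higher in both HCC827 libraries.

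**Figure D4:**
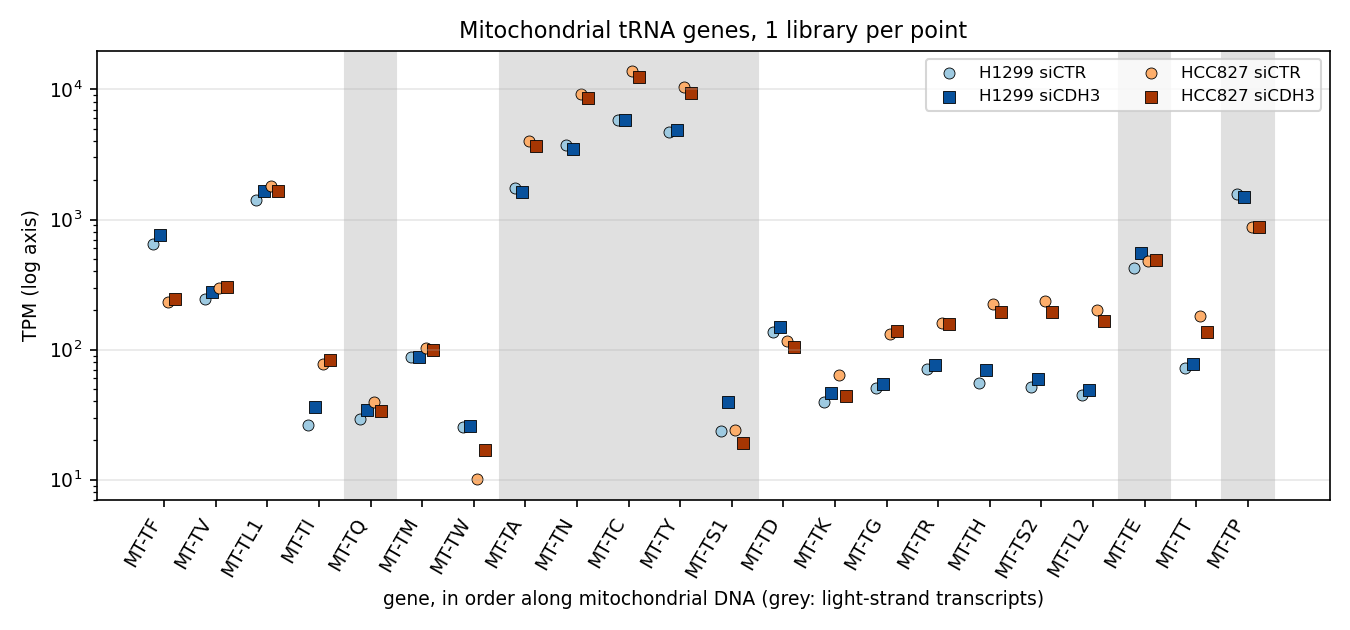
TPM (log axis) of the 22 mitochondrial transfer RNA genes in gene order, with 1 point per library and no error bars; grey bands mark light-strand transcripts. MT-TA, MT-TN, MT-TC and MT-TY form a block at 1636 TPM or more, whereas MT-TQ and MT-TS1 on the same strand lie at 39.7 TPM or less.

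Between siCDH3 and siCTR the transfer RNA genes followed the direction of the mRNAs less closely. In H1299, 18 of 22 had a higher TPM in siCDH3, with a median log2 ratio of 0.13, and relative to the median of all genes 22 of 22 did. The 4 genes that were lower on the deposited scale were MT-TA (-0.10), MT-TN (-0.08), MT-TP (-0.08) and MT-TC (-0.00, 5819 and 5807 TPM), all on the light strand, and relative to all genes their ratios were 0.01, 0.02, 0.03 and 0.10, so their direction turns with the scaling. MT-TS1 had the largest ratio, at 23.5 and 39.2 TPM (0.71), from a low level, and 0 of 22 were at least 2-fold apart (2.46% of all genes). MT-TI (isoleucine), at 26.5 and 36.3 TPM (0.44), and MT-TE (0.39) followed. In HCC827, 16 of 22 were lower in siCDH3, with a median of -0.13, and again 0 of 22 were at least 2-fold apart (1.84% of all genes). Their ratios there ran from -0.51 for MT-TK (lysine), at 63.2 and 44.0 TPM, to 0.69 for MT-TW. By limma 0 of 22 were called for the siRNA term, and 0 of 22 had an unadjusted p under 0.05.

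Comparing the lines, HCC827 had higher TPM of most mitochondrial mRNAs with either siRNA. In the siCTR libraries 12 of 13 were higher in HCC827 and 10 of 13 at least 2-fold, where 35.7% of all 12601 genes tested were higher and 13.5% at least 2-fold. The median log2 ratio of the 13 was 1.61, and that of all genes -0.39. In the siCDH3 libraries 11 of 13 were higher and 7 of 13 at least 2-fold (41.4% and 15.3% of all genes), with medians of 1.19 and -0.23. Relative to all genes the median of the 13 was 1.999 higher in HCC827 with siCTR and 1.42 with siCDH3. These 2 comparisons share no library. In the limma fit with siRNA as a block, the cell line term was called at an adjusted p under 0.05 for 10 of 13 mRNAs as higher in HCC827 and for 1 as lower, where 21.5% and 41.3% of all 12941 genes were. This test has 2 libraries per line that differ in siRNA. Nothing in the labels says that they came from separate cultures beyond their treatment. As for the siRNA term, limma weighs the residual of each gene with a spread over all genes. The residual, with 1 degree of freedom per gene, is how far the lines differ in response to the siRNA. Technical differences between single libraries cannot be told apart from that, and the p-values measure no spread between replicate cultures.

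Among the complexes, complex IV had the largest median log2 ratio of HCC827 to H1299, 1.93 with siCTR and 1.61 with siCDH3. The ATP synthase median was nearly equal with siCTR, at 1.91, and lower with siCDH3, at 0.81. Its order with siCTR depends on whether the nuclear copies of MT-ATP6 are counted, as their addition raised the MT-ATP6 ratio to 2.90. By limma MT-CO3 was higher in HCC827 by 2.11 (SE 0.16, adjusted p = 0.000469) on the log2 scale, with a TPM of 8731 (siCTR) and 9829 (siCDH3) in H1299, against 40862 and 39235 in HCC827. Both HCC827 values exceed both H1299 values of this gene. The limma differences were smaller for MT-CO2, at 1.77 (SE 0.17, adjusted p = 0.000976), and MT-CO1, at 1.503 (SE 0.16, adjusted p = 0.00135). MT-CO2 had a TPM of 8441 (siCTR) and 10253 (siCDH3) in H1299, against 32236 and 31241 in HCC827. The complex III gene MT-CYB, with a TPM of 2612 (siCTR) and 3442 (siCDH3) in H1299, against 8710.4 and 7998 in HCC827, was higher in HCC827 by 1.48 (SE 0.19, adjusted p = 0.00272) in the limma fit. MT-ATP8 was higher by 1.69 (SE 0.16, adjusted p = 0.00101) by limma. MT-ATP6 was not called, at 1.03 (SE 0.47, adjusted p = 0.115) by limma, and its log2 ratio between the lines was 1.996 with siCTR and 0.06 with siCDH3. With its nuclear copies added these ratios became 2.90 and 1.004.

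The complex I genes were split. MT-ND3, with a TPM of 3601 (siCTR) and 3961 (siCDH3) in H1299, against 14229 and 13646 in HCC827, was higher in HCC827 by 1.88 (SE 0.16, adjusted p = 0.000648) in limma, and MT-ND2 by 1.33 (SE 0.16, adjusted p = 0.00228) in limma. The limma difference was 0.87 (SE 0.17, adjusted p = 0.00989) for MT-ND4L, 0.85 (SE 0.19, adjusted p = 0.016) for MT-ND4 and 0.72 (SE 0.19, adjusted p = 0.0255) for MT-ND1, each under 1 log2 unit. MT-ND5 and MT-ND6, which meet end to end near the end of the heavy-strand coding region, did not follow. MT-ND5 had a TPM of 6181 (siCTR) and 8202 (siCDH3) in H1299, against 6698 and 6177 in HCC827, and its limma difference of -0.15 (SE 0.19, adjusted p = 0.535) did not pass. MT-ND6 had a TPM of 7657 (siCTR) and 11613 (siCDH3) in H1299, against 6001 and 5926 in HCC827, lower in both HCC827 libraries than in either H1299 library, with a limma difference of -0.66 (SE 0.21, adjusted p = 0.043). That call for MT-ND6 was lost in 5 of 8 alternative limma fits. Its adjusted p by limma was 0.0573 without the siRNA block, 0.0694 with a pseudocount of 0.1, 0.134 without a filter, 0.154 with libraries centred on the median of all genes and 0.344 with TPM scaled to nuclear genes. Relative to all genes, the log2 ratio of MT-ND6 was 0.04 with siCTR and -0.74 with siCDH3, so its direction with siCTR turns with the scaling.

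**Figure D5:**
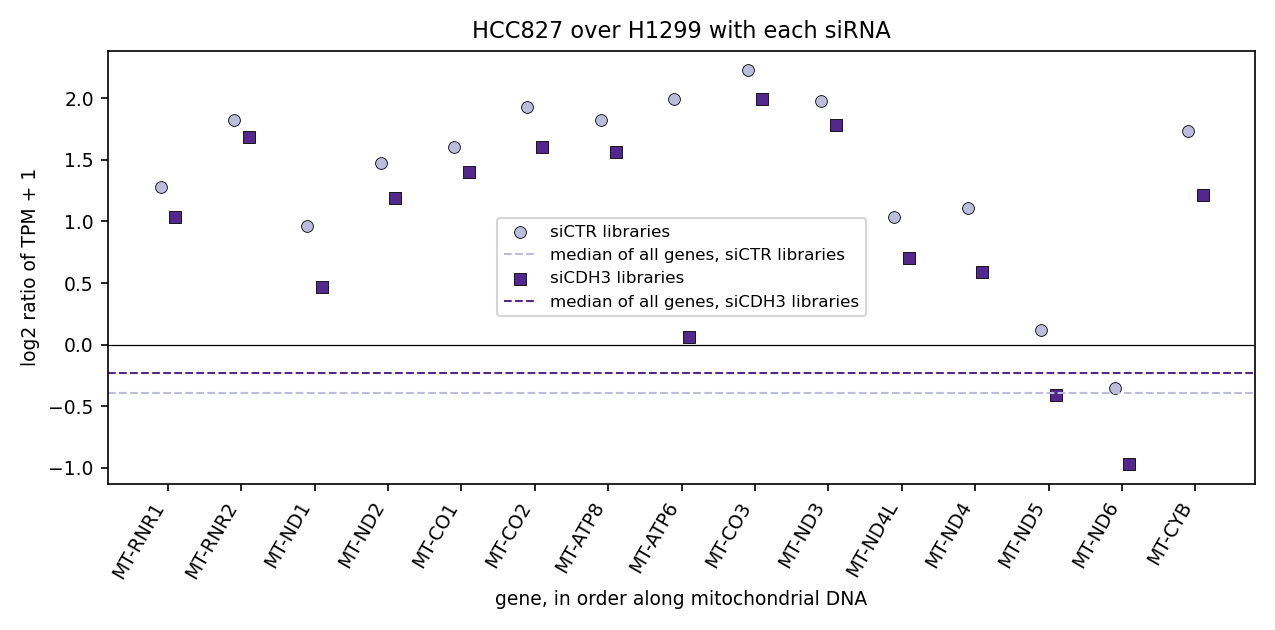
Log2 ratio of TPM + 1, HCC827 over H1299, for each ribosomal RNA and mRNA gene in the siCTR libraries (circles) and the siCDH3 libraries (squares), with dashed lines at the median of all genes (-0.39 and -0.23). Ratios reach 2.23 for MT-CO3, fall to -0.97 for MT-ND6, and differ most between the siRNAs for MT-ATP6.

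Sequence features of the mRNAs were set beside these levels. MT-ND6, the light-strand transcript, holds 35.6% G and 7.05% C, whereas the other 12 mRNAs hold between 6.28% and 16.2% G and between 29.5% and 36.0% C. It is one of the 2 mRNAs that were not higher in both HCC827 libraries. The other, MT-ND5, holds 10.6% G and 34.3% C. GC content as a whole lay between 39.6% and 47.7% over the 13, with MT-ND6 at 42.7%. The stop codon is incomplete in the gene for 6 of 13 mRNAs, where polyadenylation supplies its last bases. These are MT-ND1, which ends in TA, and MT-ND2, MT-CO3, MT-ND3, MT-ND4 and MT-CYB, which end in T. Both kinds of mRNA included genes of high and of low TPM, such as MT-CO3 and MT-CYB with an incomplete stop and MT-CO1 and MT-ATP6 with a complete one. Whether base composition or the kind of stop codon bears on these levels was not tested. Transcript lengths ran from 207 bases for MT-ATP8 to 1812 for MT-ND5.

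The ribosomal RNAs were higher in HCC827 as well. By limma MT-RNR2 was higher by 1.76 (SE 0.15, adjusted p = 0.000757) and MT-RNR1 by 1.16 (SE 0.16, adjusted p = 0.00332). Both were at least 2-fold higher with each siRNA, where 13.5% (siCTR) and 15.3% (siCDH3) of all genes were. Of the 22 transfer RNA genes limma called 11 as higher in HCC827 and 3 as lower, where 21.5% and 41.3% of all genes were called. The largest difference by limma was that of MT-TL2 (leucine), at 1.94 (SE 0.18, adjusted p = 0.000853), which with MT-TH (histidine) and MT-TS2 (serine) forms a run between MT-ND4 and MT-ND5. Those 3 genes had 45.0, 55.5 and 51.6 TPM in H1299 siCTR and 202, 225 and 237 in HCC827 siCTR. In the opposite direction, MT-TF was lower in HCC827 by limma, at -1.56 (SE 0.15, adjusted p = 0.00111), as were MT-TW, at -0.93 (SE 0.22, adjusted p = 0.0174), and MT-TP, at -0.81 (SE 0.15, adjusted p = 0.0086). MT-TF and MT-RNR1 adjoin on the heavy-strand precursor and differed between the lines in opposite directions. The run of MT-TA, MT-TN, MT-TC and MT-TY was higher in HCC827 by between 1.06 and 1.30 log2 units in the limma fit, with adjusted p from 0.00183 to 0.00418.

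Genes of the machinery that copies, transcribes and processes mitochondrial DNA were described by lists chosen with earlier results known. Of 10 mitochondrial transcription genes in H1299, 0 were at least 2-fold higher (0.878% of all genes) and 1 at least 2-fold lower (1.58%), with a list median of -0.12. That gene was MTERF4, which acts with NSUN4 in assembly of the mitochondrial ribosome, at 25.6 TPM in siCTR and 10.4 in siCDH3 (-1.22). In HCC827 MTERF4 had 7.13 and 13.4 TPM (0.83). TFAM, which packages mitochondrial DNA and starts its transcription, had 20.2 and 11.2 TPM in H1299 (-0.80) and 17.3 and 15.0 in HCC827 (-0.19), and was named after its values were seen. The mitochondrial RNA polymerase gene POLRMT, also named afterwards, had 44.4 and 44.9 TPM in H1299 (0.01) and 23.3 and 24.2 in HCC827 (0.05). In HCC827 0 of 10 were at least 2-fold apart (1.84% of all genes), with a median of 0.03.

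The other lists differed little between siRNAs. For replication and maintenance of mitochondrial DNA 0 of 13 genes in H1299 and 0 of 12 in HCC827 were at least 2-fold apart (2.46% and 1.84% of all genes), with medians of -0.15 and 0.02. The mitochondrial thymidine kinase gene TK2 had a log2 ratio of -0.70 in H1299, against 0.49 in HCC827, the largest of that list in both. For RNA processing, stability and decay, 0 of 20 and 0 of 19 measured genes were past 2-fold, with medians of -0.04 and 0.04. In that list TRMT10C, a subunit of mitochondrial RNase P, had -0.42 in H1299, and HSD17B10, another subunit, 0.49 in HCC827. For modification of ribosomal and transfer RNA 0 of 11 and 0 of 13 were past 2-fold, with medians of -0.01 and 0.03. For regulators of mitochondrial biogenesis 0 of 6 and 0 of 6 were, with medians of -0.26 and 0.04, and GABPA, a subunit of a nuclear factor for respiratory genes, had -0.62 in H1299.

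Between the lines the machinery genes went both ways. In the siCTR libraries MTERF4 and MTERF3, of the same protein family, were lower in HCC827 by at least 2-fold. The log2 ratio of MTERF3 was -1.42 with siCTR and -1.29 with siCDH3, whereas that of MTERF4 was -1.71 with siCTR and 0.34 with siCDH3, so its direction turned with the siRNA. With siCTR TFB2M, the transcription initiation factor that melts the promoter, was at least 2-fold higher, at 10.6 TPM in H1299 and 23.5 in HCC827 (1.09, and 1.21 with siCDH3). Of 10 transcription genes these were 1 higher and 2 lower, where 13.5% and 27.8% of all genes were. ELAC2, which cuts the 3′ ends of transfer RNAs from the precursor, had 39.0 and 82.5 TPM with siCTR (1.06, and 0.99 with siCDH3), and the nuclear receptor gene ESRRA 21.3 and 48.9 (1.16, and 1.31 with siCDH3). In replication the log2 ratio of RNASEH1 was 1.07 with siCTR and 0.92 with siCDH3, and that of PRIMPOL -1.02 and -1.02. At least 2-fold higher with siCTR were thus 1 of 20 processing genes, 1 of 6 biogenesis regulators and 1 of 13 replication genes (13.5% of all genes). At least 2-fold lower were 0, 0 and 1 of them (27.8% of all genes). Of the modification list 0 of 12 were at least 2-fold apart (41.2% of all genes), with a list median of 0.44 against -0.39 for all genes.

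Nuclear genes for partner subunits of the same complexes had medians below 0 between the lines, unlike the mitochondrially encoded genes. In the siCTR libraries the median log2 ratio, HCC827 over H1299, was -0.37 for 7 complex I core genes, -0.67 for 9 complex III genes, -0.64 for 10 complex IV genes and -0.71 for 11 ATP synthase genes. The median of all genes was -0.39, and the mitochondrially encoded genes of complexes I and IV had 1.04 and 1.93. At least 2-fold higher was 1 of these 37 genes (13.5% of all genes), NDUFV1, which binds NADH in complex I, at 66.8 and 165 TPM (1.29). With siCDH3 NDUFV1 had 82.6 and 93.0 TPM (0.17), so its difference rests on the siCTR libraries. At least 2-fold lower with siCTR were 8 of 37 (27.8% of all genes): UQCRFS1, UQCRC1 and UQCRB of complex III, COX6B1 of complex IV, and ATP5A1, ATP5C1, ATP5D and ATP5H of ATP synthase. COX6B1 had 569.6 TPM in H1299 siCTR and 128 in HCC827 siCTR (-2.14, and -2.17 with siCDH3). Within H1299, where the median of all genes was -0.11, the siCDH3 to siCTR medians of the same 4 lists were 0.23, 0.02, 0.08 and -0.01. In HCC827, where it was 0.03, they were 0.17, 0.0055, -0.0072 and 0.0016. The complex I core and complex III lists thus had medians above 0 in both lines. Relative to the median of all genes only the complex I core list was above it in both, by 0.33 in H1299 and 0.14 in HCC827.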

How the data were processed

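RNA sequencing of 4 libraries was used, 1 each for siCTR and siCDH3 in H1299 and HCC827. The values deposited by the authors are TPM per gene, 1 column per library, not pooled. The build hg19 is named per the submitters' processing notes; for the aligner, counter and strandedness the sources used here give nothing. Libraries were prepared from total RNA with standard Illumina steps, per the labels' protocols.

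Members were the 37 rows named MT-, and all 37 identifiers matched GENCODE release 29 (GRCh38), used only for gene order, strand, lengths and sequences; no coordinates are printed. Log2 ratios were taken of TPM + 1 where either library compared reached 5 TPM, and genes at least 2-fold apart were counted with no p-value. In R 4.3.3, limma 3.58.1 modelled all 12941 genes reaching 5 TPM in any library, with cell line and siRNA as terms and Benjamini-Hochberg adjustment. It was also run on simulated data with the same noise for every gene and no difference in response between the lines. That setting differs from these data, so the run does not bear on the calls given here. Copies were aligned to their parents with Biopython (version 1.88). Alternatives were other pseudocounts, filters, denominators and limma settings.

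The members and lists were chosen with earlier results of these data known. Every mRNA and rRNA member is named; from each list, genes past 2-fold or otherwise up to 3 with the largest ratios could be named. Every transfer RNA gene above 0 TPM is named, with up to 4 nuclear copies of highest TPM; TFAM and POLRMT were added after their values were seen.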

Additional observations from a re-analysis of the deposited data

Results flagged for a closer look

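For 27 of the 37 genes the siCDH3 library was above siCTR in H1299 and below it in HCC827, both as deposited and relative to the median of all genes. The values are differences between the lines in the log2 ratio of siCDH3 to siCTR (H1299 minus HCC827). Of all 9724 genes tested in both lines, 1325 (13.6%) met the same description. Each line has 1 library per siRNA, so these differences were not tested. Among the 13 mRNAs they were 1.93 for MT-ATP6, 0.62 for MT-ND6, 0.52 for MT-ND4, 0.52 for MT-ND5, 0.52 for MT-CYB and 0.50 for MT-ND1, then 0.34 for MT-ND4L, 0.33 for MT-CO2, 0.28 for MT-ND2, 0.26 for MT-ATP8, 0.23 for MT-CO3, 0.21 for MT-CO1 and 0.20 for MT-ND3. For the ribosomal RNAs they were 0.24 for MT-RNR1 and 0.14 for MT-RNR2. Among 12 transfer RNA genes they were 1.03 for MT-TS1, 0.72 for MT-TK, 0.53 for MT-TH, 0.51 for MT-TT, 0.49 for MT-TS2 and 0.45 for MT-TQ, then 0.40 for MT-TL2, 0.39 for MT-TL1, 0.29 for MT-TD, 0.20 for MT-TY, 0.16 for MT-TR and 0.037 for MT-TM. MT-ATP6 exceeded the next mRNA, MT-ND6, by more than 1 log2 unit, and MT-TS1 lies at 39.2 TPM or less in all 4 libraries.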

How the results depend on the processing

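Of 73 alternative values over 11 results, 60 kept their direction and moved by less than 0.1 log2 units (medians) or 1.5 times (counts), 9 moved further and 4 turned direction. Part of the 60 could hardly have moved. Every mRNA and ribosomal RNA was at 1788 TPM or more, so other pseudocounts and TPM filters barely touch their ratios and 2-fold counts. In HCC827 the mRNA log2 ratios lay between -0.12 and -0.02, so their 2-fold count could hardly change. The tally is therefore no measure of how robust these results are. With each comparison centred on the median of all genes, the H1299 medians became 0.39 (mRNA) and 0.24 (ribosomal RNA), and the siCTR medians of HCC827 over H1299 1.999 and 1.945. With TPM scaled to nuclear genes only, those between the lines became 2.04 and 1.99. With the sum of the same class as the denominator, which sets the mean change of a class near 0, the mRNA medians turned to -0.070 in H1299 and 0.0066 in HCC827 and became 0.15 between the lines, and the ribosomal RNA medians became 0.025 in H1299, 0.0037 in HCC827 (turned) and -0.14 between the lines (turned). At a 1.5-fold rule 2 mRNAs of H1299 passed. Adding nuclear copies to the parent genes, chosen after the data were seen, moved no mRNA median by 0.1. A median over 13 genes can hardly respond to MT-ATP6, the gene with the largest share of copies. Its own log2 ratio between the lines moved from 1.996 to 2.90 with siCTR and from 0.06 to 1.004 with siCDH3. Of the limma line calls, 8 of 13 mRNAs stayed called without a filter on TPM, where MT-ND1, MT-ND4 and MT-ND6 were lost, and 10 to 11 in the other alternatives. The share of protein-coding TPM was not run, because the file gives no gene types. The limma fit for the siRNA term pairs siCTR with siCDH3 within each line through the cell line block, and the labels carry no replicate numbers for another pairing. Without that block limma called 0 of 13 mRNAs for the siRNA term, and without the siRNA block 10 of 13 for the line term. TPM keeps no depth, so no counting error can be given.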
